A study of Mus musculus with 8 samples.

Results

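The *Rhox* genes are a family of homeobox genes that lie side by side on the mouse X chromosome. The 6 genes described here, *Rhox1*, *Rhox5*, *Rhox6*, *Rhox9*, *Rhox10* and *Rhox13*, were taken by symbol from the 25239 genes counted in E14.5 fetal ovaries, as members of the family reported in germ cells. The files held 31 *Rhox* genes in all. A filter on low counts kept 14249 genes for testing, among them 13 *Rhox* genes and 5 of the 6 described here, while *Rhox10* was too low to be tested.

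A homeobox encodes a DNA-binding domain of 3 helices, and the third helix sits in the major groove of the DNA. *Rhox* genes are known for expression in the gonads and the placenta, and much of the cluster is held silent in other tissues by DNA methylation. *Rhox5* (formerly *Pem*) is the founding member and is expressed in embryonic stem cells, placenta, germ cells and Sertoli cells. *Rhox6* and *Rhox9* are a closely related pair expressed in placenta and primordial germ cells, *Rhox10* acts in the formation of spermatogonial stem cells, and *Rhox13* encodes a protein of germ cells in both sexes.

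RNA-Seq was carried out on E14.5 ovaries of 4 control (*Bmpr1a* fl/fl, without Cre) and 4 *Bmpr1a*-cKO (*Bmpr1a* fl/fl; *Oct4*-Cre Cre/WT, below cKO) libraries on a C57BL/6 background, each made from 2 ovary pairs, to ask what loss of this BMP receptor from germ cells does to the transcriptome. Dams carrying either genotype were given 1 mg of 4-hydroxytamoxifen and 0.5 mg of progesterone on 3 days (9.5 dpc, 10.5 dpc, 11.5 dpc), since the *Oct4*-driven Cre is inducible and acts in germ cells. Somatic cells of the ovary keep the receptor, and control embryos received the drugs but carried no Cre. The 8 embryos of each genotype came from 6 litters, and the litter of each library was not labelled. 

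The sequences below are shown because the 6 genes encode the same short motif in the third helix, with bases that differ in and around it. This bears on whether their reads could be told apart. Each line is 60 coding bases of the spliced transcript, 5′ to 3′ on the strand of the gene, from GENCODE vM21 on mm10. The capitals mark 18 bases that encode Trp-Phe, any pair of residues, Arg or Lys, and Arg, in the third helix. Pairs of the 6 genes were identical at 11 to 16 of these 18 bases. All 6 stretches join exons across an intron.
*Rhox1*: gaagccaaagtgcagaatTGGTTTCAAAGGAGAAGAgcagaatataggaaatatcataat
*Rhox5*: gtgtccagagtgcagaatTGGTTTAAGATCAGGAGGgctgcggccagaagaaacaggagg
*Rhox6*: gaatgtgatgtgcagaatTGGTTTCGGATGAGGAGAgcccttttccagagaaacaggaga
*Rhox9*: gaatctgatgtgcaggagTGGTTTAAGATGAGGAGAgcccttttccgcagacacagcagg
*Rhox10*: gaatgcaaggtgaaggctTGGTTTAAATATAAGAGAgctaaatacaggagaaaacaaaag
*Rhox13*: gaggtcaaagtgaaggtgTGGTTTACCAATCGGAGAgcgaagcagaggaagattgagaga

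The stretch of *Rhox1* lay within chrX:37214003-37215564 (minus strand), that of *Rhox5* within chrX:37806105-37808659 (plus), that of *Rhox6* within chrX:37828446-37829668 (plus), that of *Rhox9* within chrX:37899255-37900294 (minus), that of *Rhox10* within chrX:38069430-38071491 (plus) and that of *Rhox13* within chrX:38123105-38129786 (plus). *Rhox6* and *Rhox9* differed at 10 of the 60 bases, and no other pair of the 6 differed at fewer than 20. Over the whole coding sequence *Rhox6* and *Rhox9* were 90.6% identical, whereas the other pairs were 43.2% to 49.1% identical. The encoded proteins are 224 residues long for *Rhox1*, 210 for *Rhox5*, 227 for *Rhox6* and *Rhox9*, 196 for *Rhox10* and 232 for *Rhox13*. A read of 150 bases taken whole from a transcript would be identical to one from another gene at 0% of positions in *Rhox1*, *Rhox5*, *Rhox10* and *Rhox13*, at 1.39% in *Rhox6* and at 0.474% in *Rhox9*, in both cases with each other. None of the 6 genes overlapped another gene in this annotation.

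In cKO ovaries, *Rhox5* was upregulated and *Rhox13* was downregulated, whereas *Rhox1*, *Rhox6* and *Rhox9* did not pass the test. A differentially expressed gene (DEG) had an absolute Log2FC (log2 of the ratio of cKO to control) above 0.5 and an FDR below 0.05 in the quasi-likelihood (QL) F test of edgeR, adjusted over all genes tested. By this rule 2 of the 5 tested genes were DEGs, 1 in each direction, beside 10.2% of all genes tested (6.11% upregulated and 4.06% downregulated). Values are CPM, counts scaled to the library total with TMM factors, except where another scale is named, and means are given with the SD of 4 libraries. In whole ovaries, fewer germ cells and less RNA per germ cell cannot be told apart.

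The total count per library was 8562961 to 15365052, and the 31 *Rhox* genes together took 678 to 1932 of these counts, or 0.00979% ± 0.00189 in control and 0.0115% ± 0.00244 in cKO libraries (p = 0.229 in a two-sided exact permutation test). *Bmpr1a* itself was 199 to 236 CPM in control and 185 to 209 CPM in cKO libraries, with a Log2FC of -0.16 (edgeR QL, FDR = 0.0692). Somatic cells carry this transcript, and the counts cover the whole gene, so its level does not check the genotype labels. The germ cell markers *Ddx4*, *Dazl*, *Mael*, *Stk31*, *Tdrd1*, *Nanos3* and *Sohlh2* were detected in all 8 libraries.

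*Rhox5* (chrX:37804842-37808876, plus strand) was the *Rhox* gene with the highest level per length of annotated exons in both genotypes. It was measured at 15.4, 24.6, 22.9 and 14.9 CPM in control libraries 1 to 4, from 187, 278, 245 and 237 counts. In cKO libraries 1 to 4 it was at 24.7, 33.4, 33.7 and 34.0 CPM, from 207, 449, 322 and 499 counts. The genotypes did not overlap, but control library 2 and cKO library 1 lay almost at the same level, and the other 3 cKO libraries stood close together above them. Such a separation was seen in 27.9% of all genes tested. The mean rose from 19.5 ± 5.02 to 31.4 ± 4.52 CPM, which was 1.64-fold higher by the fit, with a Log2FC of 0.72 (SE 0.15, 95% interval 0.40 to 1.04, edgeR QL, FDR = 0.00220). The call was made whichever library was left out, with a Log2FC of 0.59 to 0.84. It was lost when libraries were scaled to the 7 germ cell markers (Log2FC 0.53, edgeR QL, FDR = 0.0572). Under that scaling the median Log2FC of all genes was -0.17, against -0.0042 in the main fit.

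*Rhox13* (chrX:38121219-38129967, plus strand) lies at the other end of the cluster from *Rhox1*. Its counts were few, 20, 22, 46 and 39 in control libraries 1 to 4 and 12, 14, 11 and 14 in cKO libraries 1 to 4. These corresponded to 1.64, 1.95, 4.30 and 2.46 CPM in control and 1.43, 1.04, 1.15 and 0.954 CPM in cKO libraries. All 4 cKO libraries lay below all 4 control libraries, with control library 3 standing well above its group and control library 1 nearest to the cKO libraries. The mean fell from 2.59 ± 1.19 to 1.14 ± 0.207 CPM, which was 2.28-fold lower by the fit, with a Log2FC of -1.19 (SE 0.31, 95% interval -1.86 to -0.53, edgeR QL, FDR = 0.00954). *Rhox13* remained a DEG with each library left out in turn, with a Log2FC of -1.35 to -0.88, the weakest without control library 3. It also remained one under the 15 other settings tried, with an FDR of at most 0.0154. Under germ cell marker scaling the Log2FC was -1.35.

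*Rhox6* (chrX:37826910-37829857, plus strand) was at 18.9, 21.1, 27.3 and 16.3 CPM in control libraries 1 to 4. In cKO libraries 1 to 4 it was at 16.7, 29.9, 30.0 and 27.9 CPM. Of the 4 cKO libraries, 3 were above every control library, and cKO library 1 was down among the lowest controls. The means were 20.9 ± 4.72 and 26.1 ± 6.37 CPM, and the Log2FC of 0.35 did not pass the test (SE 0.17, 95% interval -0.0066 to 0.71, edgeR QL, FDR = 0.133). Without cKO library 1 the Log2FC was 0.50 with an FDR of 0.00683 (edgeR QL), just under the fold threshold, and without control library 3 it was 0.49 with an FDR of 0.0346. Without control library 4 it was 0.23 with an FDR of 0.379 (edgeR QL).

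Its near copy *Rhox9* (chrX:37899097-37901770, minus strand) was at 19.5, 29.8, 31.0 and 18.3 CPM in control libraries 1 to 4. In cKO libraries 1 to 4 it was at 16.2, 34.1, 27.8 and 30.7 CPM. The genotypes overlapped over most of their range, and cKO library 1 was again the lowest of its group. The means were 24.7 ± 6.64 and 27.2 ± 7.77 CPM, with a Log2FC of 0.18 that did not pass the test (SE 0.20, 95% interval -0.24 to 0.59, edgeR QL, FDR = 0.534) and that was -0.030 under germ cell marker scaling. With the counts of *Rhox6* and *Rhox9* added together, so that reads assigned to the wrong copy would not matter, the Log2FC was 0.24 (95% interval -0.13 to 0.62, edgeR QL, FDR = 0.335). This sum was 0.41 without cKO library 1 (FDR = 0.0230) and 0.12 without control library 4 (FDR = 0.677), and the Log2FC of *Rhox9* alone was 0.35 and 0.042 in the same fits (edgeR QL).

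*Rhox1* (chrX:37213804-37222258, minus strand), the first gene of the cluster, was at 7.31, 7.96, 9.07 and 8.19 CPM in control libraries 1 to 4. In cKO libraries 1 to 4 it was at 5.60, 8.24, 7.01 and 10.9 CPM. The cKO libraries lay on both sides of the control libraries, with means of 8.13 ± 0.730 CPM in control and 7.94 ± 2.25 CPM in cKO. The Log2FC was 0.0022 (SE 0.17, edgeR QL, FDR = 0.994), its 95% interval reached from -0.35 to 0.36, and its sign changed with the processing.

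*Rhox10* (chrX:38066475-38071691, plus strand) was barely detected. It had 1, 1, 1 and 3 counts in control libraries 1 to 4 and 3, 2, 2 and 1 counts in cKO libraries 1 to 4. Summed over libraries this was 0.120 CPM in control (exact Poisson 95% interval 0.0440 to 0.261) and 0.174 CPM in cKO ovaries (0.0749 to 0.342), and these intervals, which cover counting error only, overlapped. A difference between genotypes was not detectable at this depth.

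**Figure D1:**
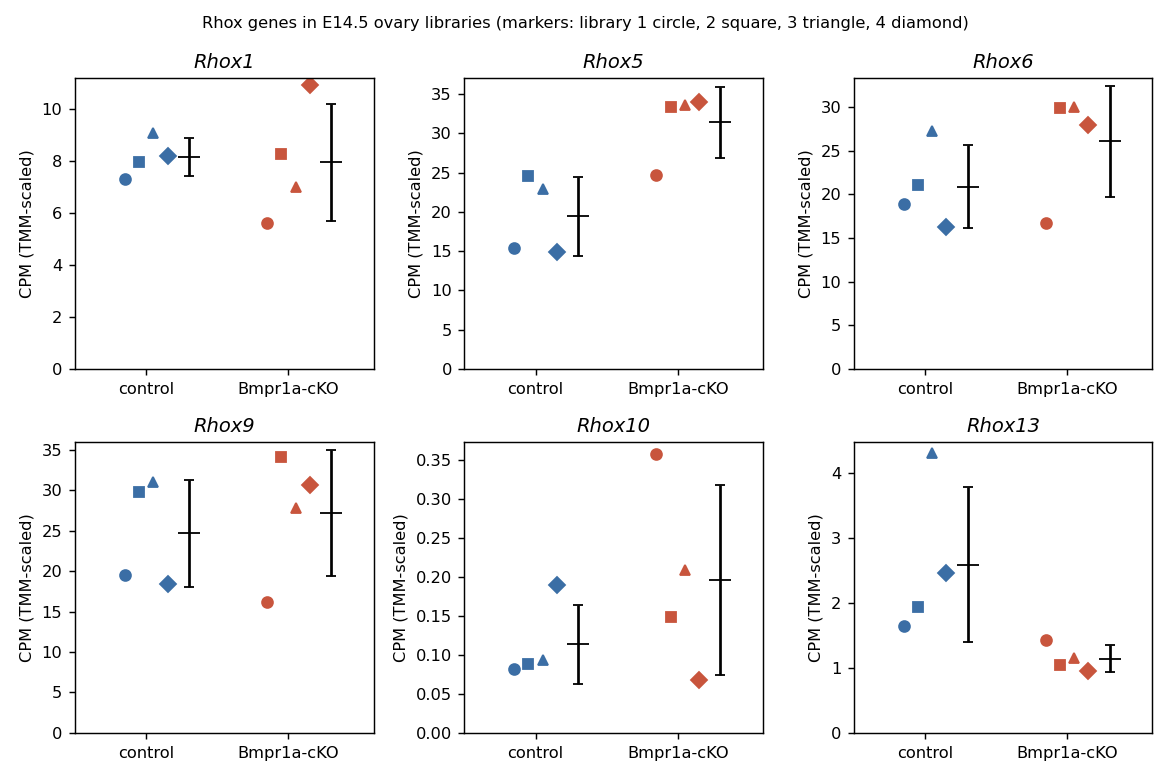
CPM after TMM scaling (vertical axes, each from 0) of the 6 genes in the 4 control (blue) and 4 cKO (red) libraries, with marker shape giving the library number and the black bar the mean ± SD. The genotypes separate for *Rhox5* (higher in cKO) and *Rhox13* (lower), and cKO library 1 (circle) is the lowest of its group for *Rhox1*, *Rhox5*, *Rhox6* and *Rhox9*.

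To compare levels between genes, CPM was divided by the annotated exon length in kb to give RPKM. In control ovaries the order was *Rhox5* (25.8 ± 6.66 RPKM), *Rhox6* (20.7 ± 4.67), *Rhox9* (9.91 ± 2.67), *Rhox1* (9.21 ± 0.827), *Rhox13* (2.95 ± 1.36) and *Rhox10* (0.149 ± 0.0665). The neighbours *Rhox5* and *Rhox6*, and likewise *Rhox9* and *Rhox1*, differed by less than their spread in control ovaries. The order was the same in cKO ovaries, at 41.7 ± 5.99 RPKM for *Rhox5*, 25.9 ± 6.31 for *Rhox6*, 10.9 ± 3.12 for *Rhox9*, 8.99 ± 2.55 for *Rhox1*, 1.31 ± 0.236 for *Rhox13* and 0.257 ± 0.160 for *Rhox10*. The place of *Rhox9* depended on which transcript its reads came from. With the shorter annotated transcript of 882 bases in place of all exons, *Rhox9* came to 28.0 ± 7.53 RPKM in control ovaries. On its own shorter transcript of 633 bases *Rhox5* came to 30.7 ± 7.93 RPKM there, and *Rhox6*, with a single transcript, stayed at 20.7 ± 4.67. In cKO ovaries these shorter transcripts gave 30.8 ± 8.81 RPKM for *Rhox9* and 49.6 ± 7.14 for *Rhox5*.

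The balance between genes within a library does not depend on how libraries are scaled. Of the 10 ratios that the 5 tested genes form, 4 did not overlap between genotypes, and all 4 held *Rhox5* or *Rhox13*. Both genes were DEGs without overlap themselves, so the ratios are not separate evidence. Among single genes 27.9% of all tested did not overlap, and ratios of other gene pairs were not computed. The *Rhox5* to *Rhox13* ratio of counts was 9.35, 12.6, 5.33 and 6.08 in control libraries 1 to 4 and 17.2, 32.1, 29.3 and 35.6 in cKO libraries 1 to 4, a difference of 1.81 on the log2 scale. The *Rhox5* to *Rhox9* ratio was 0.786, 0.825, 0.740 and 0.814 in control libraries, which kept close together, and 1.52, 0.978, 1.21 and 1.11 in cKO libraries, a log2 difference of 0.59. *Rhox1* to *Rhox5* was lower in every cKO library (log2 difference -0.79) and *Rhox6* to *Rhox13* was higher (1.40). Each of these 4 reached p = 0.0286, the smallest that an exact permutation test (two-sided) of 4 against 4 libraries can give, and p = 0.0714 after Benjamini-Hochberg adjustment over the 10 ratios. The *Rhox6* to *Rhox9* ratio overlapped, at 0.709 to 0.966 in control and 0.876 to 1.08 in cKO libraries (p = 0.20 in a two-sided exact permutation test).

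The level of germ cell transcripts varied between libraries and was set beside these values. The geometric mean of the 7 germ cell markers was 49.2, 55.8, 66.2 and 52.0 CPM in control libraries 1 to 4 and 47.3, 64.7, 68.6 and 71.4 CPM in cKO libraries 1 to 4. Library 1 of the cKO group, the lowest of its group for *Rhox1*, *Rhox5*, *Rhox6* and *Rhox9*, was thus also the lowest in germ cell markers, and its *Rhox13* level was the highest of its group. The markers themselves did not move as one, since *Dazl*, *Nanos3* and *Sohlh2* were upregulated DEGs, *Mael* was a downregulated DEG, and *Ddx4*, *Stk31* and *Tdrd1* were not DEGs. Their summed level was 711 to 938 CPM in control and 760 to 1204 CPM in cKO libraries (p = 0.0857 in a two-sided exact permutation test). Divided by the marker level, *Rhox5* was 0.312, 0.440, 0.346 and 0.287 in control libraries 1 to 4 and 0.521, 0.515, 0.491 and 0.476 in cKO libraries 1 to 4. On that scale cKO library 1 was the highest of its group, and the genotypes stayed apart. The part of germ cell number in the *Rhox* values was not tested.

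**Figure D2:**
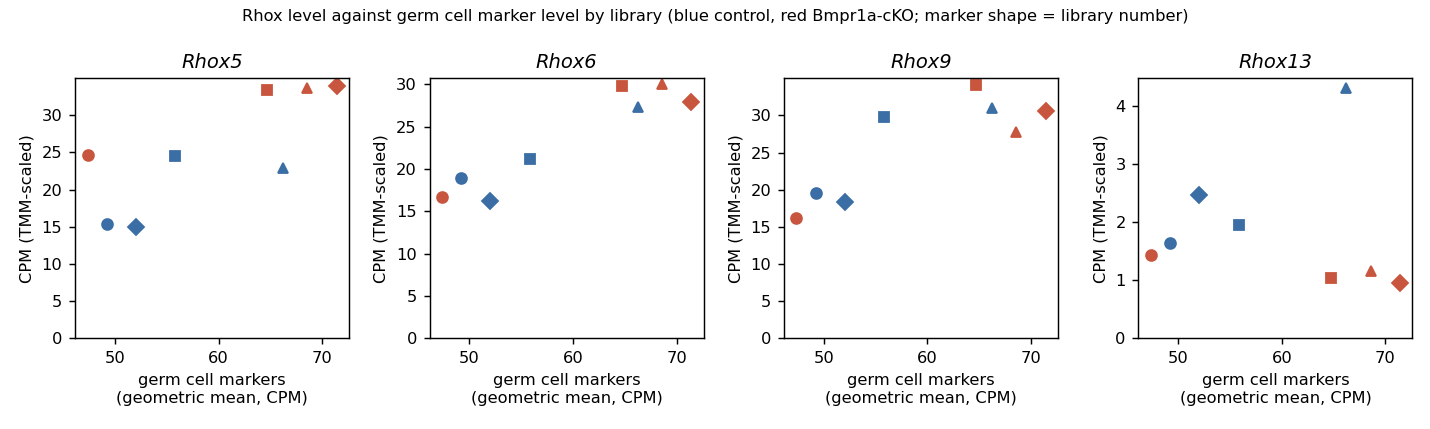
CPM of *Rhox5*, *Rhox6*, *Rhox9* and *Rhox13* (vertical axes, from 0) against the geometric mean of 7 germ cell markers in CPM (horizontal axes) in control (blue) and cKO (red) libraries, with marker shape giving the library number. cKO library 1 (red circle) has the lowest marker level of all 8 libraries, 47.3 CPM, and *Rhox13* is below the control range in all red points whatever their marker level.

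Markers of the other cell types in which *Rhox* genes are known were read in the same libraries. Of 8 trophoblast markers, *Prl3d1*, *Prl2c2* and *Ctsq* were at 0 counts in every library, 2 were tested, and the summed level was 2.90 to 5.57 CPM in control and 2.02 to 3.24 CPM in cKO libraries. *Hand1*, which is expressed in other tissues too, was the 1 downregulated DEG among them. Of 7 Sertoli cell markers all were tested and 1, *Cyp26b1*, was a downregulated DEG, beside 4.06% of all genes tested. Of the 7, 3 were lower at an unadjusted p under 0.05 and 2 had an FDR under 0.05 (edgeR QL). The summed level of the Sertoli cell markers was 31.9 to 35.5 CPM in control and 25.5 to 28.2 CPM in cKO libraries. *Rhox8*, a *Rhox* gene known from Sertoli cells, was at 2.28 ± 0.472 CPM in control and 1.62 ± 0.286 CPM in cKO ovaries (Log2FC -0.48, edgeR QL, FDR = 0.145). The libraries are of ovaries, so these values do not show that Sertoli cells were present. Summed markers of pregranulosa cells were lower too, at 898 to 962 CPM in control and 658 to 839 CPM in cKO libraries. The part of these cells in the *Rhox* values was not tested.

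The 6 genes were then read within their cluster, which spans chrX:37213804-38129967. Of the 25 other *Rhox* genes in the files 8 were tested. Over all 13 tested, 7 were upregulated and 2 downregulated DEGs, beside 6.11% and 4.06% of all genes tested. Of the upregulated genes 6 were *Rhox2* copies, and with lettered copies summed 4 *Rhox* rows were called. The median Log2FC of the 13 was 0.72, in which each of these copies counts singly, and over all genes tested it was -0.0042. *Rhox2a*, *Rhox2b* and *Rhox2c* shared identical 150-base stretches with other copies over 46.2%, 50.5% and 38.6% of their positions, so reads there may have been lost or split between copies and the counts of these copies are uncertain. The tested copies *Rhox2d*, *Rhox2g* and *Rhox2h* shared only 2.05%, 1.76% and 0% of theirs.

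The *Rhox2* copies were also summed. The 8 copies together had 79, 116, 107 and 130 counts in control libraries 1 to 4 and 96, 250, 195 and 305 counts in cKO libraries 1 to 4. In CPM this was 6.50, 10.3, 10.1 and 8.20 in control and 11.4, 18.5, 20.3 and 20.7 in cKO libraries. The genotypes did not overlap, and as for *Rhox5*, library 1 was the lowest cKO library and lay just above the highest control. The sum rose with a Log2FC of 1.04 (SE 0.17, edgeR QL, FDR = 0.000369), it remained a DEG with each library left out, and under germ cell marker scaling its Log2FC was 0.84. Taken one by one, all 6 tested copies were upregulated DEGs with a Log2FC of 0.91 to 1.41, but only *Rhox2c* and *Rhox2g* did not overlap between genotypes. Several calls turned on single libraries. *Rhox2a* was not called without cKO library 4 (Log2FC 0.77, edgeR QL, FDR = 0.0525), and with a library left out *Rhox2b* was called only when that was control library 4 or cKO library 1, the FDR being up to 0.134 in the other 6 fits (edgeR QL). *Rhox2d* was not called without control library 1 or 4 or cKO library 3 or 4, with an FDR of up to 0.0746, and *Rhox2h* was not called without control library 1, 3 or 4 or cKO library 3, with an FDR of up to 0.0747 (edgeR QL).

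**Figure D3:**
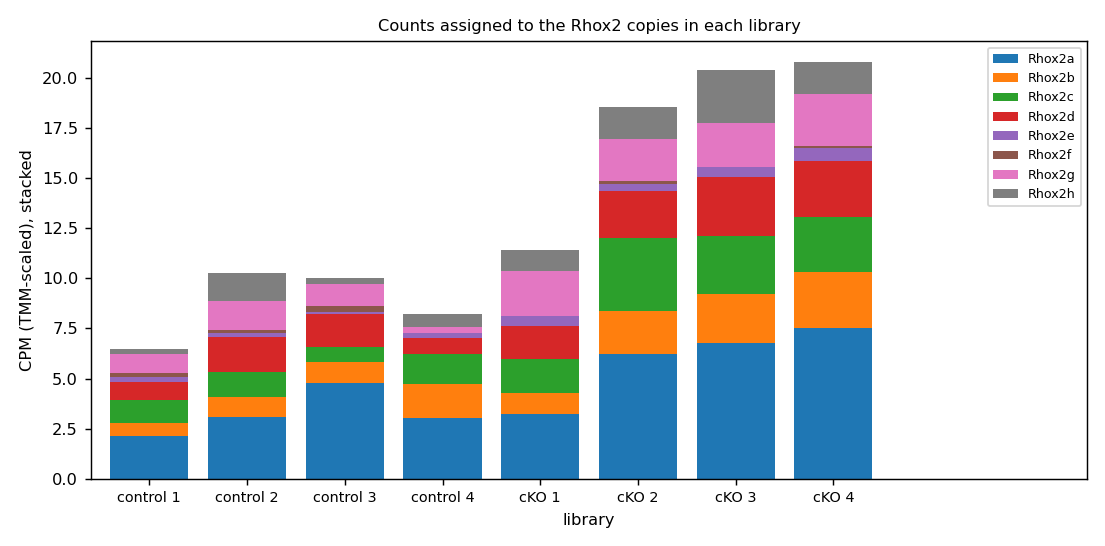
CPM after TMM scaling assigned to each of the 8 *Rhox2* copies (stacked colours) in the 4 control and 4 cKO libraries, on an axis from 0. The stacks reach 6.50 to 10.3 CPM in control and 11.4 to 20.7 CPM in cKO libraries, and *Rhox2a* is the largest share in every library.

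*Rhox7a* lies just after *Rhox6* and, like *Rhox13*, was downregulated. Its level was 8.25 ± 0.549 CPM in control and 3.42 ± 0.615 CPM in cKO ovaries with no overlap (Log2FC -1.24, SE 0.15, edgeR QL, FDR = 2.30e-05). Reads over 14.4% of its positions could also come from its copy *Rhox7b*. *Rhox11*, the neighbour of *Rhox10*, had 3, 3, 1 and 5 counts in control libraries 1 to 4 and 0 in all cKO libraries. With 3 counts over the group as the limit that 0 allows, the control level of 0.240 CPM was 3.69-fold above that limit. Exact Poisson 95% intervals, which cover counting error only, were 0.124 to 0.419 CPM in control and 0 to 0.0800 CPM in cKO ovaries. *Rhox11* did not pass the filter on low counts, and in the fit without that filter it was called downregulated (edgeR QL, FDR = 0.00989). The copy *Rhox4d* likewise had 3, 2, 1 and 1 counts in control libraries 1 to 4 and 0 in all cKO libraries. It shared 64.0% of its positions with other copies and was not called in that fit (Log2FC -3.86, edgeR QL, FDR = 0.05003). The copies of *Rhox3* and *Rhox4* were at 0 to 3 and 1 to 13 counts per library when summed over copies. In all, 5 *Rhox* genes, *Rhox3a*, *Rhox3e*, *Rhox3f*, *Rhox4b* and *Rhox12*, had no counts in any library. Identical 150-base stretches in other genes covered 95.1% of *Rhox3a*, 81.0% of *Rhox3e*, 9.56% of *Rhox3f*, 84.3% of *Rhox4b* and 0% of *Rhox12*. Reads from shared stretches may have been lost or split, so 0 counts of such copies do not show absence.

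**Figure D4:**
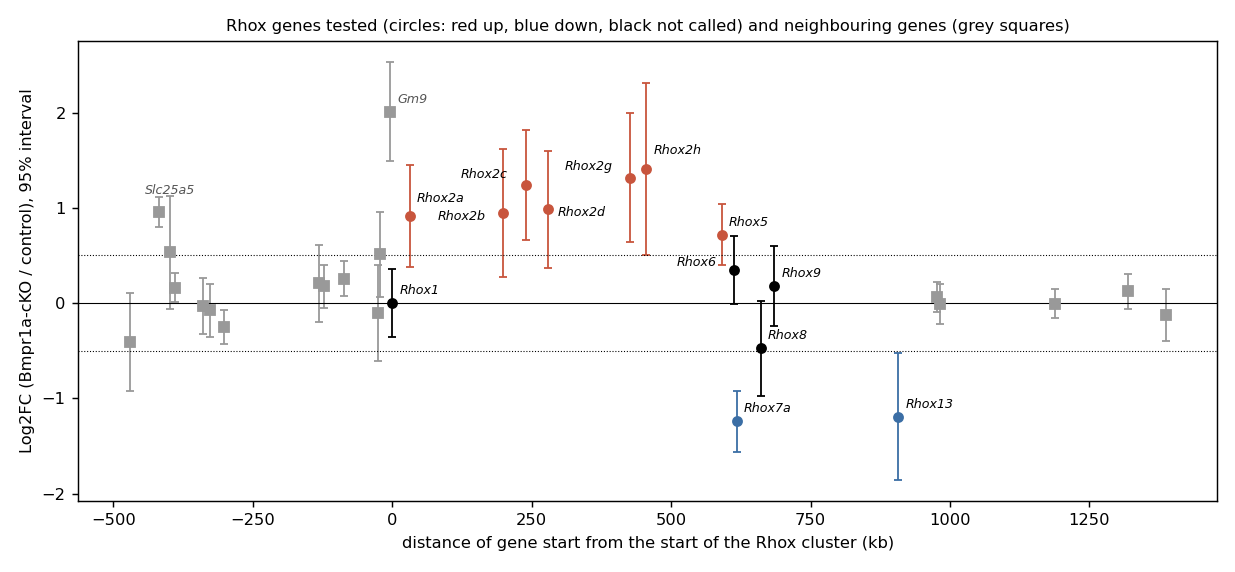
Log2FC of cKO against control with its 95% interval (vertical axis) by distance of the gene start from the start of the *Rhox* cluster in kb, for 13 *Rhox* genes (circles, red upregulated, blue downregulated, black not called) and 18 neighbouring genes (grey squares), with dotted lines at the fold threshold of 0.5. The upregulated *Rhox2* copies lie in the first part of the cluster, *Rhox5* lies beside *Rhox6*, which like *Rhox9* was not called, and the downregulated *Rhox7a* lies between this pair.

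Genes around the cluster were called at about the share of all genes, with 11.1% being DEGs beside 10.2% of all genes tested. Of 18 other genes tested within 500 kb of it, 2 were upregulated DEGs and 0 were downregulated, in edgeR and in DESeq2 alike (5 were higher and 1 lower at an unadjusted p under 0.05), with a median Log2FC of 0.092. The 2 were *Slc25a5*, which encodes an ADP/ATP carrier of the mitochondrial inner membrane, at 122 ± 7.94 and 237 ± 22.5 CPM (Log2FC 0.96, edgeR QL, FDR = 3.38e-07), and *Gm9*, which is annotated next to *Rhox1*, at 1.38 ± 0.462 and 5.34 ± 1.03 CPM (Log2FC 2.01, edgeR QL, FDR = 2.40e-05). The downstream neighbours beyond *Rhox13* had a Log2FC of -0.12 to 0.12, and none of the 5 was a DEG. Of all X-linked genes tested other than *Rhox* genes, 14.49% were DEGs, beside 9.94% of autosomal genes.

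A list of 11 genes known to act on *Rhox* expression, mostly writers, readers and erasers of DNA methylation, was read next. Of the 9 tested, 2 were upregulated DEGs and 0 downregulated, in edgeR and in DESeq2 alike (2 were higher and 2 lower at an unadjusted p under 0.05). Over all genes tested, 6.11% were upregulated and 4.06% downregulated DEGs in edgeR. *Tet1*, which oxidises methylated cytosine, was at 88.9 to 103 CPM in control and 166 to 195 CPM in cKO libraries (Log2FC 0.88, edgeR QL, FDR = 5.20e-07). *Dnmt3b*, a de novo DNA methyltransferase, was at 17.9 to 22.4 and 30.2 to 31.7 CPM (Log2FC 0.63, edgeR QL, FDR = 3.68e-05). *Setdb1*, a histone H3K9 methyltransferase, had an FDR under 0.05 with a smaller Log2FC of -0.32. *Dnmt1*, *Dnmt3a*, *Uhrf1*, *Tet2*, *Ehmt2* and *Gata4* did not pass the test, and *Dnmt3l* and *Nanos2* were too low to be tested. No methylation was measured here.

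**Figure D5:**
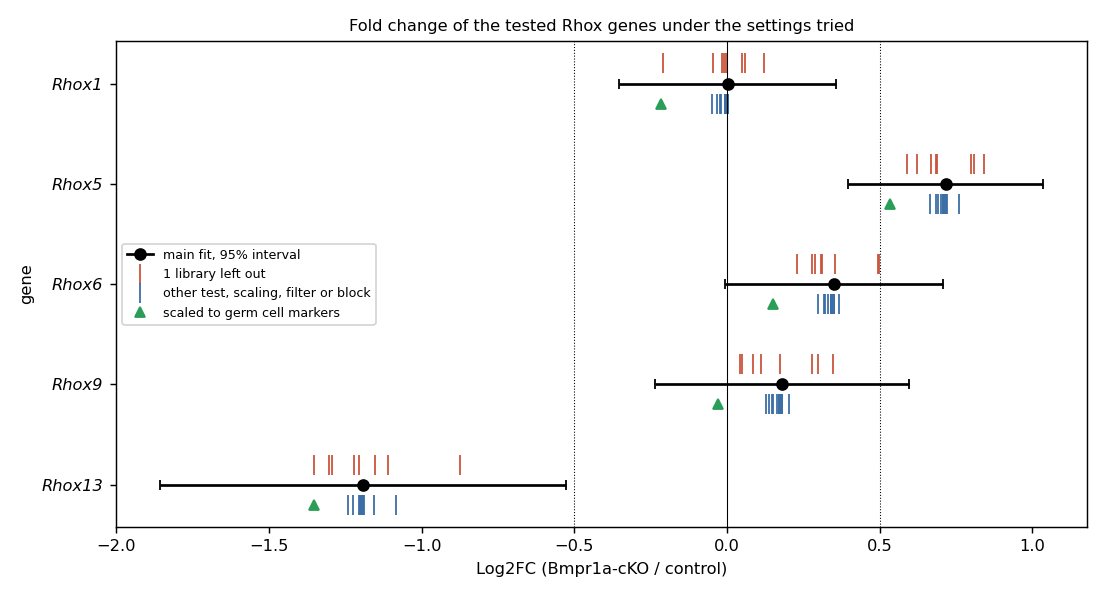
Log2FC of the 5 tested genes (horizontal axis) in the main fit with its 95% interval (black), with 1 library left out (red ticks), under other tests, scalings, filters or the block (blue ticks) and scaled to germ cell markers (green triangle), with dotted lines at -0.5 and 0.5. *Rhox13* stays below -0.5 and *Rhox5* above 0.5 in all of them, *Rhox6* stays between 0 and 0.5, and *Rhox1* falls on both sides of 0.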

How the data were processed

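Reads of 150 bases from a strand-specific library kit were trimmed by the authors with Trimmomatic 0.39, checked with FastQC 0.11.9, and mapped and counted with STAR 2.5.2 on mm10. The deposited values are whole-number counts per gene symbol without normalization. The annotation and strand setting of the counting are not given in the sources used here. A deposited table of CPM values was not used.

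From the counts, genes were kept with filterByExpr by genotype, scaled by TMM and tested with the QL F test of edgeR 4.0.16 in R 4.3.3 (limma 3.58.1, DESeq2 1.42.0 as alternatives), two-sided, with Benjamini-Hochberg adjustment over 14249 genes. A fold under 0.5 on the log2 scale or an FDR above 0.05 gave no call. No sample was left out. Totals were 8562961 to 15365052 counts, and a single library's limit for 0 counts (3 counts) was 0.189 to 0.357 CPM. Libraries were distinct pools of embryos, and replicates differed by more than counting noise. Positions, exon lengths, sequences and overlaps came from GENCODE vM21, with 85 of 25239 symbols unmatched. The script was tested on simulated data.

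The genes named were the 6 chosen, all other *Rhox* genes, genes within 500 kb, 11 genes known to act on *Rhox* expression (1 further gene first written into that list is not reported here), markers of germ cells, pregranulosa, Sertoli, steroidogenic, stromal, endothelial, macrophage, erythroid, mesonephric and trophoblast cells, and, per tested gene, the 3 genes nearest in pattern. Genes and lists were chosen with earlier results of these data known. The alternatives were other tests (likelihood ratio, limma-voom, DESeq2), scalings (RLE, upper quartile, library size, germ cell markers), filters and thresholds, leaving out *Rn45s* (a ribosomal precursor) or each library, a replicate block, and summed copies.

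The shared replicate numbers of the genotypes were checked as pairs. The deviations of same-numbered libraries from their genotype means correlated over genes at 0.198, 0.161, 0.108 and -0.087, so the numbers were not taken as pairs.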

Additional observations from a re-analysis of the deposited data

Results flagged for a closer look

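In 26 sets of 4 libraries (13 *Rhox* genes in each genotype), 2 held a library set apart from the other 3 by a gap larger than Dixon's critical value of 0.829 of the range. Both were *Bmpr1a*-cKO library 1, at 24.7 CPM for *Rhox5* and at 16.7 CPM for *Rhox6*. Chance sets apart about 1 in 20 such sets. This library had the smallest total, 8562961 counts, and the lowest germ cell marker level, 47.3 CPM, and the part of either in these values was not tested. Without it, *Rhox5* had a Log2FC of 0.81 and *Rhox6* of 0.50.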

How the results depend on the processing

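*Rhox13* kept its direction and call under all 23 alternatives, and *Rhox5* under all but germ cell marker scaling and a Log2FC above 1. Of the 6 genes, 2 were called in each fit that left out a library (range 2 to 2), 1 under germ cell marker scaling and 1 with a Log2FC above 1. All *Rhox* genes called numbered 9, 10 with no filter on low counts (*Rhox11* in addition), 8 with DESeq2, 5 under germ cell marker scaling, 5 with at least 10 counts in every library, 5 with a Log2FC above 1, 4 with lettered copies summed, and 6 to 9 without single libraries. DEGs over all genes numbered 1449, against 4242 by FDR alone, 501 with a Log2FC above 1 and 1288 to 1627 without single libraries. Germ cell marker scaling turned the DEGs from 60.1% upregulated (871 against 578) to 34.5% (441 against 837).

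The Log2FC of *Rhox1* turned negative with the likelihood ratio test (-0.0067), limma-voom (-0.0043), DESeq2 (-0.020), scaling by RLE (-0.0070), the upper quartile (-0.032), library size (-0.049) or germ cell markers (-0.21), no filter (-0.0067), without *Rn45s* (-0.0039), copies summed (-0.0048) and the replicate block (-0.021), and ran from -0.21 to 0.12 without single libraries. *Rhox9* reversed under germ cell marker scaling (-0.030). The causes were not tested.

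With the replicate block, 875 genes rose and 582 fell, and the same 2 of the 6 genes were called. *Rhox6* then had a Log2FC of 0.34 with an FDR of 0.0378 (edgeR QL), still below the fold threshold. Control libraries 1 and 2 alone correlated best with their own number.

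Depth limited *Rhox10*, with at most 3 counts per library, and *Rhox13*, with 11 to 46. A read assigned to the wrong *Rhox2* copy cannot be traced in counts.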

Other observations

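For each tested gene, the 3 genes with the most similar pattern over the 8 libraries were found by the root mean square difference of log2 CPM, each gene centred on its own mean. For *Rhox5* these were *Fam169a* (0.118), *Sox2* (0.119), a transcription factor of pluripotent cells, and *Enpp4* (0.121), against a median of 0.475 over all genes. *Sox2* rose from 27.2 to 46.6 CPM (Log2FC 0.80, edgeR QL, FDR = 0.000246). For *Rhox6* they were *Slfn2* (0.111), *Emb* (0.134) and *Lin28a* (0.140), an RNA-binding protein of pluripotent and early germ cells, against 0.388. For *Rhox9* they were *Ddx4* (0.155), a germ cell RNA helicase, *Bex1* (0.165) and *Denr* (0.166), against 0.422. *Rhox1* was nearest to *Nthl1*, *Nkrf* and *Rab33b* (each 0.106, against 0.312), of which *Nkrf* lies within 500 kb of the cluster. For *Rhox13* they were *Ccdc62* (0.247), *Rhov* (0.288) and *Kif27* (0.296), against 0.641, and all 3 were downregulated DEGs. Genes chosen for likeness to a DEG share its direction through the choice, so these calls and that of *Sox2* are not separate evidence. Counting error takes a larger part of the pattern of *Rhox13*, given its few counts.

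The other marker lists moved as follows in summed CPM, and over all genes tested 10.2% were DEGs. Pregranulosa markers were at 898 to 962 in control and 658 to 839 in cKO libraries, with *Foxl2* the 1 DEG of 8 tested, all 8 lower at an unadjusted p under 0.05 and 7 with an FDR under 0.05 (edgeR QL). Macrophage markers were at 18.5 to 23.0 and 26.5 to 32.8, with *Adgre1* and *C1qa* upregulated among 4 tested. Mesonephric markers were at 128 to 159 and 100 to 120, stromal markers at 1506 to 2004 and 1516 to 1898, endothelial markers at 243 to 286 and 227 to 266, and erythroid markers at 239 to 316 and 184 to 269. Each of these 4 lists held 0 DEGs in edgeR and in DESeq2, and at an unadjusted p under 0.05 they held 2, 0, 0 and 1 genes, all lower in cKO libraries. Steroidogenic markers were at 42.2 to 48.4 and 25.0 to 43.6 with *Hsd3b1* downregulated among 4 tested. The erythroid genes *Hba-a1* and *Hbb-bs* had no counts in any library, so the erythroid sum rests on the other genes of the list. Among these, *Hbb-y* was at 209 to 257 CPM in control and 151 to 223 CPM in cKO libraries. The reason for the 0 counts was not tested.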
